A study of Schizosaccharomyces pombe with 8 samples.

Results

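These data describe the genes of the RNA polymerase II transcription machinery of the fission yeast Schizosaccharomyces pombe through heat shock and recovery, in strains labelled opi10- and opi10+. Genes were taken by symbol: subunits of RNA polymerase II (rpb), Mediator (med and srb), TFIID (taf), the general factors (tbp1, tfa, tfb and tfg), SAGA (ada, gcn5, ngg1, sgf and tra), the remodellers SWI/SNF and RSC (snf, rsc and ssr) and the spt genes. The rule gave 84 genes among 2892 tested, each with 1 probe set. It was applied to current gene symbols, since 6 of the 84 (med1, med6, med10, med14, med18 and taf7) carry an older name in the array annotation, and the probe set that the annotation calls taf1 belongs to atg11 and was left out. All 84 passed the filter on low signals: the dimmest had a mean signal of 51.0, against a filter of 6.04 set on probe sets of another species.

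RNA polymerase II makes all messenger RNA, and at a promoter it depends on TFIID, whose TATA-binding protein and TAF subunits mark the start site, and on TFIIE, TFIIF and TFIIH, which load it and open the DNA. Mediator carries signals from gene-specific activators to the polymerase, SAGA acetylates histones and delivers the TATA-binding protein, and SWI/SNF and RSC slide or evict nucleosomes. Heat shock is a textbook case of rapid transcriptional redirection in yeast, in which heat shock genes are induced while many growth genes are turned down.

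There were 8 arrays, 1 for each combination of 2 strains and 4 stages. The opi10- strain, which carries the altered opi10 genotype, and the opi10+ strain were each grown to mid-log phase in liquid Edinburgh Minimal Medium at 30C, moved to 43C for 1 h, and returned to 30C for 1 h and for 3 h of recovery. opi10 is the fission yeast relative of human Hikeshi, a carrier that brings Hsp70 into the nucleus of heat-stressed human cells. The labels give neither the nature of the opi10 change nor the origin of the cultures, and opi10 itself was not analysed here, so the strain labels were not checked by its level. With 1 array per strain and stage, stage effects were tested over both strains together, which serve as the repeats of a stage, so p-values reflect how far these arrays scatter, which may be technical.

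The median S. pombe signal was 517 and 492 at 43C in opi10- and opi10+, and between 922 and 1096 on the other 6 arrays. On the deposited scale the median tested gene therefore stood at a log2 change of -0.91 at 43C, and the 84 genes at the same value, while 27 hybridisation control probe sets stood at 0.02. That value joins opposite shifts of the control median log2 signal from before heat to 43C. It went from 9.54 to 9.69 in opi10+ and from 9.51 to 9.36 in opi10-. Signals were quantile normalised, so that "rose" and "fell" below mean relative to all S. pombe transcripts on the same array. Whether the dimmer 43C arrays reflect the amount of messenger RNA in the labelled sample was not tested. Deposited-scale values are given beside many of the changes whose direction turned over on that scale. Unless said otherwise, array readings and the order of stages below are of normalised signals, and that order could differ on the deposited scale. The contrasts against cells before heat share the same 2 arrays of unheated cells.

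At 43C, 35 of the 84 genes rose and 27 fell (limma, adjusted p under 0.05), which is 41.7% and 32.1% of them. Among all tested genes 32.8% rose and 39.8% fell. The median change of the 84 genes was a log2 value of 0.15, against -0.07 for all genes, and 10 rose and 4 fell by at least 2-fold. The complexes were not uniform. Rises and falls were 27.3% and 45.5% of polymerase II genes, 42.9% and 35.7% of TAF genes and 22.2% and 50% of Mediator genes. They were 60% and 30% of general factors, 45.5% and 18.2% of SAGA genes and 50% and 21.4% of remodeller genes. Among the 5 elongation and chaperone spt genes they were 60% and 0%. The largest subunit of the polymerase, the TATA-binding protein and 6 of 8 TAFs that budding yeast uses in TFIID alone rose, whereas 5 of 7 Mediator head genes, the cyclin of the Mediator kinase and 4 of 5 TAFs shared there with SAGA fell. Of the 35 that rose, 16 were also above 0 on the deposited scale and 33 were above its all-gene median. The exceptions were rpb9 and srb6. All 27 that fell were also below 0 on the deposited scale, where the all-gene median itself was -0.91. All 27 were below that median too.

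**Figure D1:**
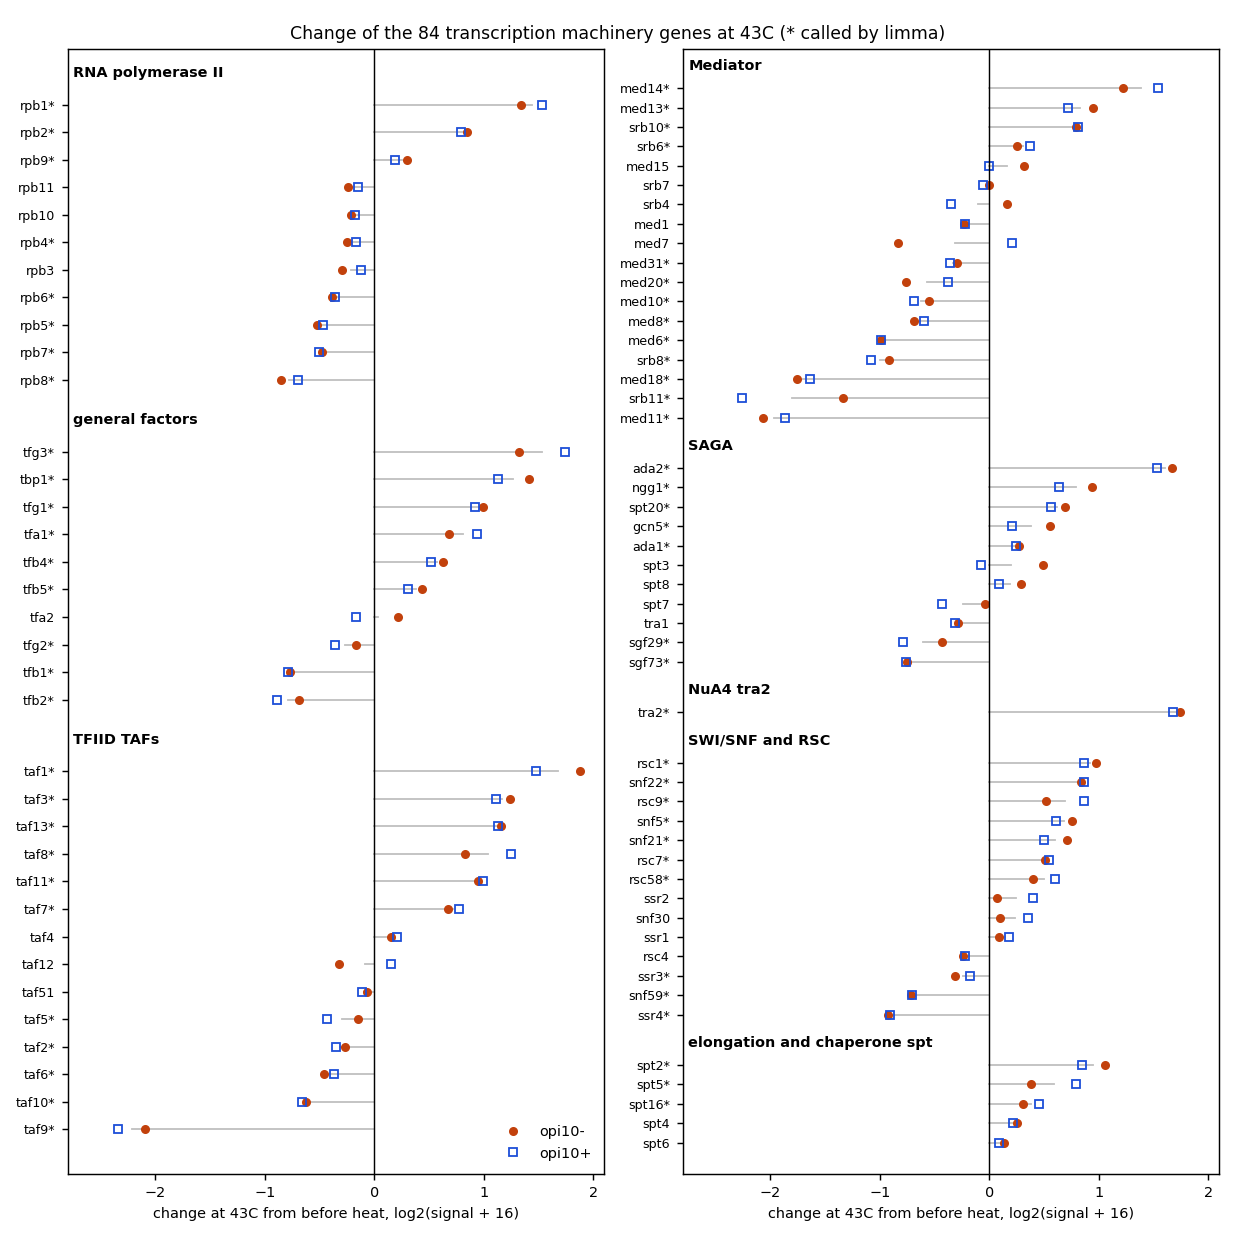
Change of each of the 84 genes at 43C relative to cells before heat, in log2(signal + 16) after quantile normalization, with genes down the page by complex. Filled circles are opi10- (1 array against 1), open squares opi10+, the grey bar ends at their mean, and an asterisk marks a gene called by limma. The strains lie close together for most genes, and med7 and srb11 are the widest apart.

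Of the 11 polymerase genes, 3 rose and 5 fell at 43C, with a median log2 change of -0.21. The rises were rpb1 and rpb2, the subunits that build the catalytic cleft, and rpb9, which sits at the jaw. In opi10-, rpb1 read 329 before heat, 856 at 43C, 377 at 1 h and 258 at 3 h of recovery, and in opi10+ it read 310, 928, 498 and 255 at the same stages. Both 43C arrays stood above the other 6. With deposited values the opi10+ 1 h array (611) was above both 43C arrays (521 in opi10- and 560 in opi10+). The change at 43C was 2.71-fold, a log2 value of 1.44 ± 0.12, with an adjusted p of 0.0001, and it was 0.48 on the deposited scale. Here and below ± is the standard error of the contrast from the limma fit to 8 arrays, moderated by the spread of other genes. The second-largest subunit, rpb2, read 2228, 4030, 3091 and 2685 in opi10- and 2285, 3949, 3102 and 2765 in opi10+ at these stages. It too peaked at 43C in both strains, by 1.76-fold (adjusted p = 0.00013). On the deposited scale rpb2 was highest at 1 h in both strains (3260 in opi10- and 3273 in opi10+). Its 43C log2 change there was 0.20 (adjusted p = 0.0719). The rise of rpb9 was 0.25 on the log2 scale (adjusted p = 0.0376) and turned to -0.97 on the deposited scale, a little under its all-gene median.

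The other polymerase subunits were level or lower at 43C. rpb8, a small subunit that polymerases I and III also use, read 1875 before heat, 1033 at 43C, 1443 at 1 h and 1006 at 3 h in opi10-, against 1518, 925, 1402 and 926 in opi10+. It was low at 43C, higher at 1 h and low again at 3 h in both strains. At 43C the fall was 1.71-fold (adjusted p = 0.00034). Of the 4 subunits with rpb symbols that the 3 polymerases share (rpb5, rpb6, rpb8 and rpb10), 3 fell at 43C. All 4 rose between 43C and 1 h of recovery by log2 values from 0.41 to 0.68. At 3 h 3 were lower than before heat, with rpb10 at -0.08. The shared subunit rpc10, which the symbol rule does not reach, rose at 43C (log2 0.37, adjusted p = 0.0365). From 43C to 1 h it was at -0.34 (adjusted p = 0.0521). With deposited values rpc10 stood at -0.45 and 0.54 in these contrasts. The 7 subunits particular to polymerase II gave 3 rises and 2 falls at 43C, the falls being the stalk pair rpb4 (-0.21) and rpb7 (-0.49). This grouping into shared and particular subunits was made after the values had been seen.

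For comparison, 20 subunit genes with RNA polymerase I and III symbols, the shared rpc10 among them, were read on the same arrays. At 43C 13 of them rose and 2 fell, with a median log2 change of 0.40, and at 1 h of recovery 13 rose and 1 fell, with a median of 0.55, against 3 rises and 3 falls among the 11 polymerase II genes. Their shares were 65% and 10% at 43C, against 32.8% and 39.8% of all genes, and 65% and 5% at 1 h, against 25.6% and 27.3%. The leading genes were rpc34 (log2 change 1.51 at 1 h) and ker1 (1.12 at 1 h). At 3 h none rose and 7 fell, by as much as 1.43 on the log2 scale for rpa34. On the deposited scale 0 rose and 11 fell at 43C, with a median of -0.40, which was 0.51 above that of all genes.

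Among the 10 general factors 6 rose and 3 fell at 43C, with a median log2 change of 0.48, and 3 of the 6 rises lay above 0 on the deposited scale. tbp1, the TATA-binding protein used by all 3 polymerases, read 3504, 9317, 6248 and 5755 in opi10- before heat, at 43C, at 1 h and at 3 h, against 4329, 9496, 6849 and 6457 in opi10+. Every later array was above both unheated arrays. The rise was 2.41-fold at 43C (log2 1.27 ± 0.09, adjusted p = 5.5e-05) and still 1.56-fold at 3 h (adjusted p = 0.00409). At such bright signals a change may be understated, and no saturation calls were used.

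TFIIF split. tfg3, the small YEATS-domain subunit that in budding yeast also belongs to SWI/SNF and other complexes, read 1320, 3319, 858 and 1059 in opi10- and 1147, 3873, 919 and 1107 in opi10+. It was high at 43C alone, by 2.89-fold (log2 1.53 ± 0.11, adjusted p = 5.8e-05), and fell 3.98-fold from there within 1 h of recovery. The largest subunit, tfg1, rose 1.94-fold at 43C (adjusted p = 0.00018), while tfg2 fell by 0.27 on the log2 scale at 43C and rose by 0.59 at 3 h.

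TFIIE and TFIIH were also divided. Of the TFIIE genes, tfa1 rose at 43C (log2 0.81, but -0.08 with deposited values) with tfa2 at 0.03, and at 3 h tfa2 rose (0.72) with tfa1 at 0.05. In opi10- tfa2 read 1296, 1512, 1728 and 2278, and in opi10+ 1634, 1455, 1860 and 2555, so both strains were highest at 3 h. In the TFIIH core, which opens promoter DNA and also repairs it, tfb1 and tfb2 fell at 43C (log2 -0.78 and -0.79) while tfb4 and tfb5 rose (0.57 and 0.38). The direction of that split depends on the scaling, since with deposited values tfb4 and tfb5 also fell, at -0.66 (adjusted p = 0.00178) and -0.79 (adjusted p = 0.00152). tfb4 read 279, 441, 479 and 317 in opi10- and 278, 405, 479 and 317 in opi10+, its peak falling at 1 h of recovery (log2 0.75 ± 0.08, adjusted p = 0.00085).

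The 14 TAF genes gave 6 rises and 5 falls at 43C, with the widest span of any complex, a standard deviation of 1.01 on the log2 scale, and 4 of the 6 rises lay above 0 on the deposited scale. taf1, the large scaffold of TFIID, read 995 before heat, 3702 at 43C, 2614 at 1 h and 1930 at 3 h in opi10-, against 1202, 3374, 2734 and 2138 in opi10+. All 6 later arrays were above both unheated arrays, in descending order from 43C to 3 h. On the deposited scale taf1 was highest at 1 h in both strains (2724 in opi10- and 2869 in opi10+, against 2598 and 2508 at 43C). Its log2 changes were 1.68 ± 0.11, 1.28 ± 0.11 and 0.88 ± 0.11 at 43C, 1 h and 3 h (adjusted p = 3.8e-05, 0.00055 and 0.0034), and the 43C value was 1.05 on the deposited scale. taf1 led the rises among the 84 genes at both recovery times.

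taf9, a histone-fold TAF that pairs with taf6, went the other way. It read 1720, 392, 1064 and 1466 in opi10- and 1583, 300, 910 and 1363 in opi10+. Both 43C arrays were the lowest, the 1 h arrays were in between, and the 3 h arrays did not reach the unheated ones. The fall at 43C was 4.64-fold (log2 -2.21 ± 0.09, adjusted p = 1.2e-05), the largest among the 84 genes, and by 1 h of recovery 1.67-fold (adjusted p = 0.00148). By 3 h the log2 change was -0.22 and missed the threshold (adjusted p = 0.104).

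taf11 and taf13, histone-fold partners in TFIID, both rose at 43C, 1.96-fold and 2.21-fold. taf13 read 815, 1838, 1700 and 1304 in opi10- and 954, 2103, 2016 and 1266 in opi10+. It stayed high at 1 h (2.08-fold, adjusted p = 0.00064), whereas taf11 was at 1.12-fold with an adjusted p of 0.211. taf3 and taf8, which in other species pair with taf10, rose 2.26-fold and 2.06-fold at 43C while taf10 fell 1.56-fold. With deposited values taf8 was at -0.01 and taf3 at 0.26. taf12, the partner of taf4, read 317, 252, 175 and 151 in opi10- and 222, 248, 182 and 140 in opi10+. It declined in recovery in both strains, to a log2 value of -0.80 ± 0.14 at 3 h (adjusted p = 0.0065). Deposited values of taf12 were instead lowest at 43C (120 in opi10- and 102 in opi10+). They rose from there to 1 h (log2 0.91, adjusted p = 0.00023), and the 3 h change of taf12 from unheated cells was -0.44 (adjusted p = 0.0267). Its 1 h call of -0.53 was lost without the opi10- unheated array (-0.29, adjusted p = 0.0728) and without the opi10- 1 h array (-0.40, adjusted p = 0.149).

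When the TAFs were sorted by their membership in budding yeast, the 8 that occur in TFIID alone (taf1, taf2, taf3, taf4, taf7, taf8, taf11 and taf13) gave 6 rises and 1 fall at 43C, with a median log2 change of 1.01, and 2 of the rises, taf7 (-0.04) and taf8, were not above 0 with deposited values. The 5 that SAGA also holds there (taf5, taf6, taf9, taf10 and taf12) gave 0 rises and 4 falls, with a median of -0.42. At 1 h the counts were 3 rises and 1 fall against 0 rises and 4 falls, and at 3 h 2 rises and 0 falls against 0 rises and 1 fall. The 43C medians with deposited values were 0.12 and -1.38. This sorting was made after the values had been seen, so it carries no test. taf5 and taf51, paralogues with WD repeats, differed at 3 h, where taf51 fell by 0.41 on the log2 scale (adjusted p = 0.0212) and taf5 was at 0.20 (adjusted p = 0.13). The taf51 call was lost with deposited values (-0.14, adjusted p = 0.443).

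**Figure D2:**
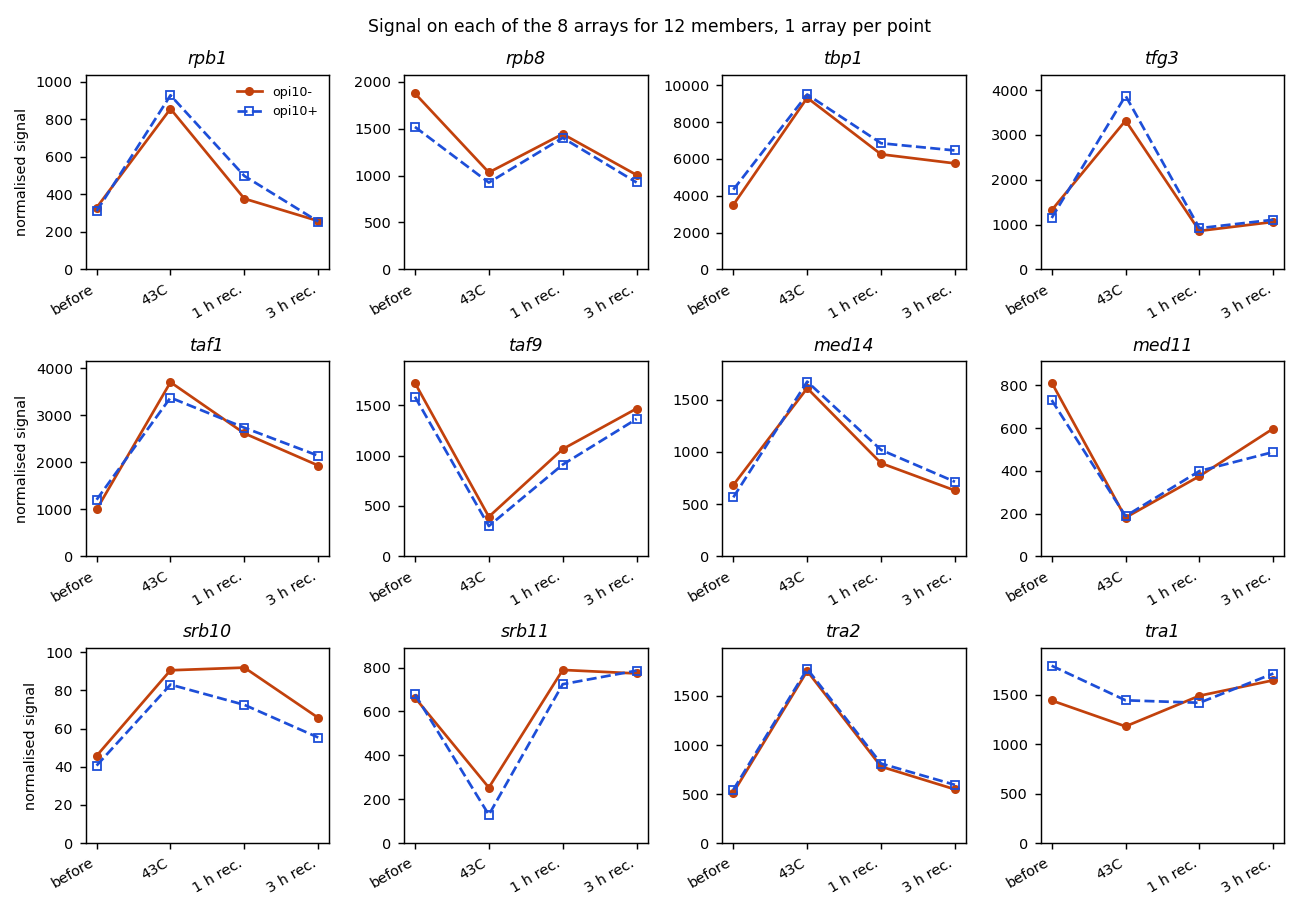
Quantile-normalised signal (linear axis from 0) of 12 genes on each of the 8 arrays, by stage, with opi10- as filled circles and opi10+ as open squares. taf1, tbp1, rpb1, tfg3, med14 and tra2 peak at 43C in both strains, and taf9, med11 and srb11 have their lowest signals there.

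Mediator had the lowest median change of the complexes at 43C, a log2 value of -0.32, which was 0.59 below the all-gene median on the deposited scale. Of its 18 genes 9 fell and 4 rose. The head module, which touches the polymerase, gave 5 falls and 1 rise among 7 genes, and the middle module 2 falls and no rise among 5. The modules were set apart after the values had been seen. med11, a head subunit, read 813 before heat, 181 at 43C, 375 at 1 h and 598 at 3 h in opi10-, against 731, 188, 399 and 488 in opi10+. No later array reached an unheated one, and the signal climbed through recovery in both strains. The fall was 3.93-fold at 43C (log2 -1.97 ± 0.11, adjusted p = 2.5e-05), 1.95-fold at 1 h and 1.42-fold at 3 h. Its 3 h change missed the threshold with deposited values (log2 -0.26, adjusted p = 0.0636).

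med18, the head subunit that with med20 forms a movable jaw, read 984, 279, 877 and 1040 in opi10- and 957, 296, 734 and 851 in opi10+. The 43C arrays were far below the other 6, by 3.25-fold (log2 -1.70 ± 0.11, adjusted p = 3.8e-05), and 1 h of recovery brought a 2.69-fold rise. med6 and med8 fell 1.99-fold and 1.56-fold at 43C and were still lower at 3 h. Neither 3 h call held with deposited values (log2 -0.10, adjusted p = 0.498 for med6, and -0.16, adjusted p = 0.296 for med8). The exception in the head was srb6, with a small rise (log2 0.31) that was a decrease on the deposited scale. In the middle module, med10 fell 1.54-fold at 43C and rose 1.38-fold over unheated cells at 3 h. med1, of the same module, read 632, 538, 520 and 367 in opi10- and 551, 472, 515 and 375 in opi10+, and was called lower only at 3 h among the contrasts with unheated cells (log2 -0.65 ± 0.09, adjusted p = 0.00402). With deposited values the change was -0.37 and missed the threshold (adjusted p = 0.0541).

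med14, the backbone that joins head, middle and tail, had the largest of the 4 Mediator rises at 43C. It read 682, 1609, 891 and 630 in opi10- and 564, 1672, 1018 and 713 in opi10+, with both 43C arrays above the other 6. The rise was 2.60-fold at 43C (adjusted p = 0.00012), it was 0.68 on the deposited log2 scale, and at 3 h the change was 0.11 with an adjusted p of 0.517.

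The 4 genes of the Mediator kinase module, a detachable part that restrains the rest of the complex, divided evenly. srb11, the cyclin, read 663 before heat, 253 at 43C, 789 at 1 h and 773 at 3 h in opi10-, against 678, 129, 724 and 786 in opi10+. Only the 43C arrays were low, and the opi10+ array was the lower of them. The fall was 3.47-fold (log2 -1.80 ± 0.22, adjusted p = 0.00044), and it was -1.34 in opi10- and -2.26 in opi10+. srb10, the kinase that this cyclin activates, read 45.7, 90.5, 91.9 and 65.6 in opi10- and 40.6, 83.0, 72.4 and 55.3 in opi10+. All 6 later arrays were above both unheated arrays, with a 1.74-fold rise at 43C (adjusted p = 0.00022), which came to a log2 value of 0.01 on the deposited scale.

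The large kinase module subunits also parted. med13 read 202, 405, 222 and 395 in opi10- and 205, 347, 207 and 351 in opi10+, so it was high at 43C and again at 3 h (log2 0.83 ± 0.09 at both, adjusted p = 0.00023 and 0.00242) but not at 1 h (0.07, adjusted p = 0.549). Its 43C rise became -0.37 on the deposited scale. srb8, the fission yeast Med12, read 629, 325, 565 and 548 in opi10- and 722, 334, 589 and 582 in opi10+, a 2.00-fold fall at 43C (adjusted p = 8.2e-05) with log2 values of -0.22 and -0.25 in recovery that did not pass the threshold.

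SAGA gave 5 rises and 2 falls among 11 genes at 43C, with a median log2 change of 0.20, and 2 of the 5 rises lay above 0 on the deposited scale. At 1 h it gave 4 rises and at 3 h 3 rises, with no fall at either time. ada2, an adaptor in the acetyltransferase module, read 351, 1148, 565 and 359 in opi10- and 382, 1134, 644 and 545 in opi10+. Both 43C arrays were the highest, by 3.03-fold (log2 1.60 ± 0.14, adjusted p = 0.00012), and at 3 h only the opi10+ array stood clear of the unheated ones. With deposited values the opi10+ arrays of ada2 at 1 h and 3 h (774 and 750) were above that at 43C (726). ngg1, the Ada3 adaptor of the same module, read 872, 1692, 1537 and 895 in opi10- and 928, 1452, 1510 and 1035 in opi10+. It held its level through 1 h of recovery (1.68-fold, adjusted p = 0.00254) and was near the start at 3 h. Deposited values of ngg1 instead gave no call at 43C (log2 0.10, adjusted p = 0.512). They rose from 43C to 1 h by 0.64 (adjusted p = 0.00317).

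gcn5, the acetyltransferase itself, read 670, 989, 1187 and 609 in opi10- and 804, 930, 1206 and 831 in opi10+, so its highest arrays were those at 1 h. The rise at 1 h was 1.62-fold (log2 0.69 ± 0.14, adjusted p = 0.0064), and that call was lost without the opi10- 1 h array (adjusted p = 0.0629). The 43C call (log2 0.38, adjusted p = 0.0414) was lost without any of 5 of the 8 arrays, with adjusted p between 0.0631 and 0.28, and became -0.49 on the deposited scale. spt20, a core subunit, read 503, 821, 822 and 857 in opi10- and 534, 795, 793 and 857 in opi10+, a level plateau of about 1.54-fold to 1.64-fold at all 3 later stages (adjusted p between 0.0005 and 0.00269). Its 43C value was -0.35 with deposited values.

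The SAGA genes that fell at 43C were sgf29 (1.52-fold), which reads histone methylation, and sgf73 (1.69-fold), which anchors the deubiquitinase module. sgf73 read 1247, 734, 1329 and 1689 in opi10- and 1255, 736, 1331 and 1671 in opi10+, and was above its unheated level at 3 h (1.34-fold, adjusted p = 0.00706). tra1, the giant activator-binding subunit of SAGA, read 1444, 1182, 1492 and 1649 in opi10- and 1796, 1446, 1421 and 1717 in opi10+, with a log2 change of -0.30 at 43C that missed the threshold (adjusted p = 0.054). Its paralogue tra2, which serves the acetyltransferase complex NuA4, read 515, 1754, 780 and 548 in opi10- and 544, 1776, 811 and 594 in opi10+. Both 43C arrays of tra2 were more than 2-fold above the other 6. This was the largest rise among the 84 genes, 3.27-fold (log2 1.71 ± 0.08, adjusted p = 1.4e-05), and on the log2 scale tra2 moved by 2.02 more than tra1 in opi10- and by 1.99 more in opi10+.

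SWI/SNF and RSC gave 7 rises and 3 falls among 14 genes at 43C, with a median log2 change of 0.37, and 1 of the 7 rises lay above 0 on the deposited scale. Both ATPase motors rose: snf22, the motor of SWI/SNF, by 1.80-fold and snf21, the motor of RSC, by 1.52-fold, with deposited log2 values of 0.18 and -0.03. snf22 read 857, 1544, 1089 and 955 in opi10- and 937, 1709, 1203 and 948 in opi10+. Signals were highest at 43C and close to the start by 3 h in both strains. On the deposited scale they were highest at 1 h (1267 in opi10- and 1350 in opi10+, against 1049 and 1231 at 43C). Of the RSC subunits, rsc1, rsc7, rsc9 and rsc58 rose by log2 values from 0.50 to 0.92, and the bromodomain protein rsc4 was at -0.23 (adjusted p = 0.0604). With deposited values those 4 stood at -0.08, -0.38, -0.02 and -0.32, and rsc7 and rsc58 were called lower (adjusted p = 0.0108 and 0.0146).

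Of the remodeller subunits that fell at 43C, ssr4 (1.89-fold) and ssr3 (1.19-fold) belong to both complexes, and snf59 (1.64-fold) to SWI/SNF. snf59 read 462, 274, 630 and 359 in opi10- and 422, 252, 564 and 366 in opi10+. It was lowest at 43C, highest at 1 h and low again at 3 h in both strains, with a 2.20-fold rise between 43C and 1 h (log2 1.14 ± 0.08, adjusted p = 0.00011). At 3 h, 5 remodeller genes fell relative to unheated cells and none rose, but with deposited values 2 rose and none fell.

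Among the 5 elongation and histone chaperone genes of the spt class, 3 rose at 43C and none fell, and 1 of the 3 rises lay above 0 on the deposited scale. spt5, the large DSIF subunit that rides on the polymerase, rose by a log2 value of 0.59 (-0.04 with deposited values), and its small partner spt4 was at a log2 value of 0.24 (adjusted p = 0.0949). spt4 read 441, 528, 219 and 281 in opi10- and 398, 466, 244 and 238 in opi10+. All 4 recovery arrays were below all 4 earlier arrays. The fall was 1.76-fold at 1 h (adjusted p = 0.00173) and 1.59-fold at 3 h (adjusted p = 0.00594). With deposited values that order was lost, and spt4 fell at 43C (log2 -0.95, adjusted p = 0.00021). Its opi10+ array at 43C (219) was then below those at 1 h (297) and 3 h (365). In opi10- the 43C array (283) lay between those at 1 h (277) and 3 h (413). The 3 h call did not hold with deposited values (log2 -0.34, adjusted p = 0.0679). spt2, a histone chaperone, read 560, 1180, 993 and 1191 in opi10- and 714, 1298, 1109 and 1100 in opi10+, and stayed 1.79-fold up at 3 h (adjusted p = 0.00376). spt16, of the FACT chaperone, rose 1.30-fold at 43C and fell 1.26-fold at 1 h. With deposited values it fell at 43C (log2 -0.46, adjusted p = 0.00214), and the 1 h fall missed the threshold (-0.22, adjusted p = 0.0911).

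**Figure D3:**
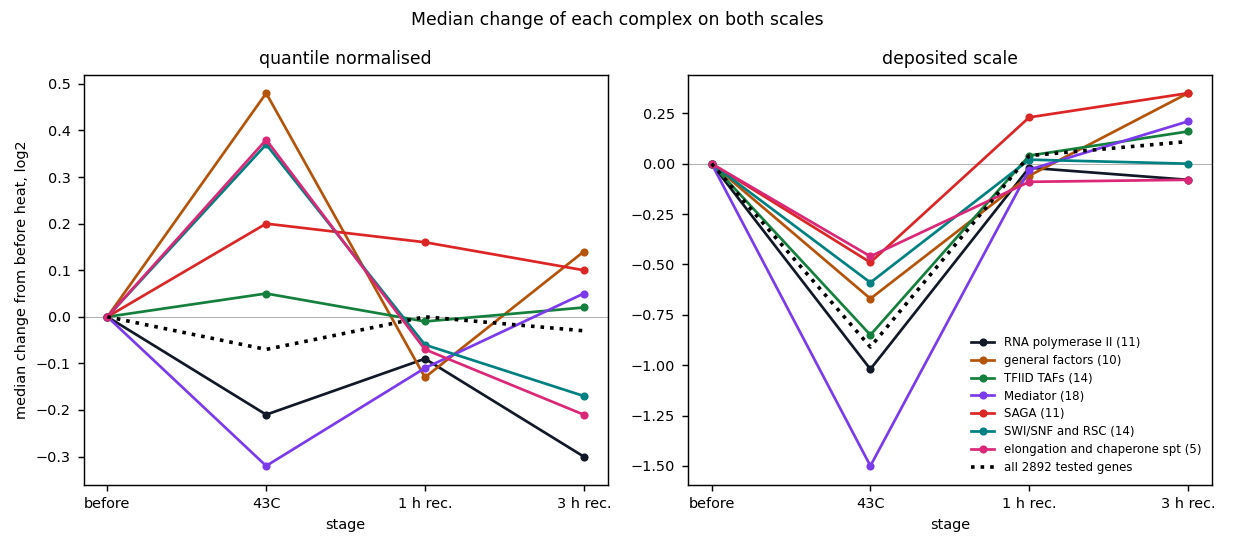
Median log2 change of each complex from cells before heat (set to 0) by stage, on quantile-normalised values (left) and on the deposited scale (right), with the median of all 2892 tested genes dotted; numbers of genes are in the legend. On both scales Mediator has the lowest median at 43C, -0.32 and -1.50, and the general factors, SWI/SNF and RSC, SAGA and the spt genes lie above the dotted line.

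At 1 h of recovery 22 of the 84 genes were called higher than before heat and 19 lower, 26.2% and 22.6%, against 25.6% and 27.3% of all genes, so both shares were near those of all genes. The leading rises were taf1, taf13, ngg1, tfb4 and tbp1, and the leading falls med11, spt4, rpb3, taf9 and taf12. rpb3, the assembly platform of the polymerase with rpb11, read 1083, 880, 594 and 754 in opi10- and 946, 869, 571 and 718 in opi10+. It was lowest at 1 h in both strains, by 1.72-fold (log2 -0.78 ± 0.08, adjusted p = 0.00085), while rpb11 was at 0.02. On the deposited scale the lowest rpb3 arrays were those at 43C (538 in opi10- and 507 in opi10+), and the 1 h change was -0.65. Counts at this stage leaned on single arrays. Without the opi10+ 1 h array 12 rose and 11 fell, without the opi10- 1 h array 13 rose and 9 fell, and without the opi10- unheated array 12 fell.

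At 3 h 16 genes were higher than before heat and 18 lower, 19% and 21.4%, against 19.7% and 22.2% of all genes, again near the shares over all genes. The leading rises were taf1, spt2, med13, tfa2 and spt20, and the leading falls rpb4, taf12, rpb8, spt4 and med1. rpb4, of the polymerase stalk, read 1491, 1249, 1107 and 749 in opi10- and 1291, 1143, 1029 and 720 in opi10+. It went down at each later stage in both strains, to 1.87-fold under the unheated level at 3 h (log2 -0.90 ± 0.08, adjusted p = 0.0018), with its stalk partner rpb7 at -0.13. On the deposited scale rpb4 was instead lowest at 43C in both strains (809 in opi10- and 730 in opi10+). It rose from there to 1 h (log2 0.67, adjusted p = 0.00033), and its 3 h change was -0.70. With deposited values 25 of the 84 genes rose and 5 fell at 3 h. The count of falls was 10 without the opi10- unheated array and 11 without the opi10- 3 h array.

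From 43C to 1 h of recovery 20 genes rose and 30 fell, 23.8% and 35.7%, against 35.1% and 30.3% of all genes. On the deposited scale, where the all-gene median moved by 0.92, 67 rose and 3 fell. The leading rises were srb11 (3.90-fold), taf9, med18, snf59 and med11, which were low at 43C, and the leading falls tfg3, tra2, taf7, spt4 and rpb1. taf7, a TFIID subunit that binds taf1, read 853, 1370, 579 and 652 in opi10- and 764, 1313, 696 and 666 in opi10+, a 2.09-fold drop from 43C to 1 h (adjusted p = 0.00035). With deposited values that call went (adjusted p = 0.133), and spt4 and rpb1 changed sign, to 0.19 and 0.01.

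Of 27 further genes of the same complexes and of elongation that the symbol rule does not reach, 21 were measured. At 43C 5 rose and 7 fell, at 1 h 1 rose and 6 fell, and at 3 h 1 rose and 5 fell. The 43C shares were 23.8% and 33.3%, against 32.8% and 39.8% of all genes. Falls were 28.6% at 1 h and 23.8% at 3 h, near the 27.3% and 22.2% of all genes. Rises were 4.76% at both times, against 25.6% and 19.7%. With deposited values 0 rose and 18 fell at 43C, 2 rose and 5 fell at 1 h, and 2 rose and 1 fell at 3 h. tfs1, the elongation factor TFIIS that rescues stalled polymerase, fell by 1.66 on the log2 scale at 43C and was lower at 1 h (-0.81) and 3 h (-0.74) as well. arp9, an actin-related protein of the remodellers, fell by 1.22 at 43C, and its partner arp42 by 0.94 at 1 h. The rises at 43C were led by cdk9 (0.81), a kinase that promotes elongation, and ssl1 (0.78), a TFIIH subunit, neither of which was called with deposited values (-0.06, adjusted p = 0.557, and 0.14, adjusted p = 0.199). From 43C to 1 h the SAGA deubiquitinase subunit sus1 (1.05) and tfs1 (0.84) rose most, and ssl1 (-0.96) and the elongation factor ell1 (-0.69) fell most. With deposited values ell1 rose instead (0.58, adjusted p = 0.00974), and ssl1 fell by 0.25. In recovery the only rises over unheated cells were those of lsk1 (0.34 at 1 h), a kinase of the polymerase tail, and ubp8 (0.65 at 3 h), the SAGA deubiquitinase. The remaining named fall was pch1 (-0.35 at 3 h), the cyclin of cdk9, which missed the threshold with deposited values (-0.18, adjusted p = 0.208).

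Between opi10- and opi10+ over the 4 stages, limma called 0 of the 84 genes and 0 of all 2892, which is 0%. At an unadjusted p under 0.05 there were 9 of the 84 (10.7%) and 317 of all genes (11%). The smallest adjusted p among the 84 was 0.373, for med8, whose log2 difference was 0.19 ± 0.06 and positive at all 4 stages. Strain differences of the 84 genes over the stages ran from -0.30 to 0.24 on the log2 scale.

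Within a stage, where 1 array stands against 1 and no test is possible, none of the 84 genes differed by 2-fold or more before heat, at 43C, at 1 h or at 3 h. Among all genes 0.657%, 0.38%, 0.138% and 0.553% did so at these stages. The widest differences were in Mediator. srb11 was higher in opi10- at 43C by a log2 value of 0.89 (signals of 253 in opi10- and 129 in opi10+) and srb4 by 0.59 (206 in opi10- and 131 in opi10+). At the same stage med20 was lower in opi10- by 0.41, with 287 in opi10- and 387 in opi10+. med7, a middle subunit, read 278 before heat, 150 at 43C, 136 at 1 h and 149 at 3 h in opi10-, against 216, 253, 241 and 158 in opi10+. It was below its unheated level on all 3 later opi10- arrays, and in opi10+ on the 3 h array alone. The opi10- minus opi10+ log2 differences were 0.34, -0.70, -0.76 and -0.08 at the 4 stages, and med7 passed no stage test.

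**Figure D4:**
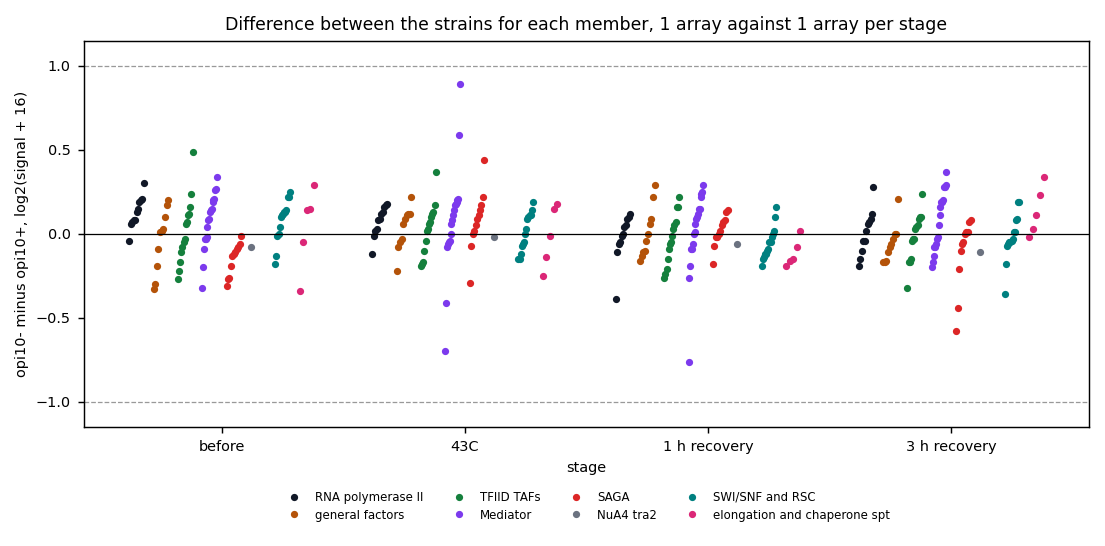
Log2 difference of opi10- minus opi10+ for each of the 84 genes within each stage (1 array against 1), coloured by complex, with dashed lines at 2-fold. No gene reaches the dashed lines, and the points farthest from 0 are Mediator genes at 43C (srb11 at 0.89, med7 at -0.70) and med7 at 1 h (-0.76).

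Before heat taf12 was higher in opi10- by 0.49, and spt2 and tfa2 were lower by 0.34 and 0.33. At 1 h srb10 and tfg2 were higher by 0.29 each and rpb1 was lower by 0.39. At 3 h med20 and spt16 were higher by 0.37 and 0.34, and the acetyltransferase module genes ada2 and gcn5 were lower by 0.58 and 0.44, with signals of 359 for ada2 and 609 for gcn5 in opi10-, against 545 and 831 in opi10+.

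By complex, all 11 SAGA genes were lower in opi10- before heat, by log2 values from 0.01 to 0.31 with a median of -0.12, on an array pair where 55.6% of all genes were higher in opi10-. The lowest were tra1 (-0.31), spt7 (-0.27) and gcn5 (-0.26). At 43C 8 of the 11 were higher in opi10-, at 1 h 6 and at 3 h 4. Before heat 10 of the 11 polymerase II genes were higher in opi10-, with a median of 0.13. At 43C 9 of 11 were, with a median of 0.09, and at 1 h and 3 h 6 of 11. These counts were made after the values had been seen, each rests on 1 array per strain, and genes on 1 array are not independent, so they carry no test.

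The response to 43C had the same sign in both strains for 78 of the 84 genes (92.9%), against 91.4% of all genes. The shares were 88.1% at 1 h and 79.8% at 3 h, against 83.1% and 81.1% of all genes. By stage mean, 36 of the 84 genes (42.9%) had their highest signal at 43C, against 33.6% of all genes, and 26 (31%) their lowest, against 38%. In SWI/SNF and RSC 10 of 14 genes peaked at 43C, and in Mediator 10 of 18 were lowest there. These counts of highest and lowest stages hold for normalised signals only. On the deposited scale 0 remodeller genes were called higher and 10 lower at 43C, and 12 rose and 0 fell from 43C to 1 h.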

How the data were processed

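The authors deposited intensity values on a linear scale for 10928 probe sets on 8 Affymetrix yeast arrays, hybridised with biotinylated cRNA from a 3′ in vitro transcription kit, per the labels. The summary of probes into probe sets and the scaling of arrays were not given in the sources used here. Gene names came from the platform annotation, updated through gene identifiers to current symbols, and 2914 probe sets had 1 S. pombe gene. Promoter and protein sequences were not used here, and no coordinates are given.

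Values were taken as log2(value + 16) and quantile normalised over S. pombe probe sets. A gene was tested when its mean signal exceeded the 75th percentile of S. cerevisiae probe sets, 6.04, with the brightest probe set kept. Stages and strains were tested with limma 3.58.1 in R 4.3.3 (functions lmFit and eBayes). The model added a strain term to the stage terms, with 3 residual degrees of freedom and Benjamini-Hochberg adjustment over 2892 genes at 0.05, after a test on simulated data. Fold changes therefore hold for value + 16 and understate dim genes. The number of arrays limits precision.

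The genes, gene lists and tests were chosen with earlier results of these data known. From the further genes, the 2 largest called changes each way per stage contrast were named, without array values. Genes named with array values were the 5 largest called rises and falls per stage contrast with the same sign in both strains, the 2 highest and 2 lowest strain differences per stage, and rpb1, tbp1 and gcn5. Others were added after their values were seen to describe a complex. Alternatives were the deposited scale, pseudocounts of 1 and 64, no filter or the 95th percentile, the mean of all probe sets, a trended robust fit, no strain term, and leaving out each array.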

Additional observations from a re-analysis of the deposited data

Results flagged for a closer look

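med7 was singled out because its change at 43C had opposite signs in the strains by at least 0.2 on the log2 scale: -0.83 in opi10- and 0.21 in opi10+, a difference of -1.04. Each value is 1 array against 1, and the difference was not tested.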

How the results depend on the processing

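Counts of called genes moved by over 1.5 times on the deposited scale: 10 rose and 60 fell at 43C, 12 fell at 1 h, 25 rose and 5 fell at 3 h, and 67 rose and 3 fell from 43C to 1 h. On that scale gcn5 at 43C (-0.49), rpb1 (0.01) and gcn5 (0.14) at 3 h, and spt4 (0.19) and rpb1 (0.01) from 43C to 1 h took the opposite sign. gcn5 at 3 h, not called, also did so without the opi10+ unheated array (0.02) and without the opi10- 3 h array (0.15), in a range of -0.24 to 0.15. With each array left out in turn, rises and falls numbered 30 to 35 and 21 to 25 at 43C, 12 to 20 and 9 to 18 at 1 h, 11 to 16 and 10 to 20 at 3 h, and 16 to 22 and 25 to 32 from 43C to 1 h, and the strain term called 0 to 0. The arrays that moved a count by over 1.5 times were opi10+ at 1 h (12 rises and 11 falls at 1 h), opi10- at 1 h (13 and 9), opi10- before heat (12 falls at 1 h and 10 at 3 h) and opi10- at 3 h (11 falls at 3 h). The rise of rpb1 at 1 h was lost without the opi10+ unheated array (adjusted p = 0.146) or the opi10+ 1 h array (0.201), and that of gcn5 at 43C without the strain term (0.0547). Under the other pseudocounts and filters, probe set averaging and the trended robust fit, the named genes kept direction and side of the threshold, and each count moved by at most 3 genes. The stage contrasts hold strain as a block, which pairs the arrays of a strain. Without that block rises and falls numbered 33 and 25 at 43C, 22 and 17 at 1 h, 15 and 17 at 3 h, and 19 and 30 from 43C to 1 h.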
